A study of Mus musculus with 72 samples.

Results

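Interferon-stimulated genes are the genes that cells switch on when they receive an interferon signal. A list of 39 of them was followed through brain and liver of 3 inbred mouse strains, and 37 could be read by the rule used: a probe set annotated with that gene symbol alone, and, where a gene had several, the probe set with the highest mean over all 72 arrays. The 37 belong to 18194 genes measured in this way. Isg15, whose probe set is annotated with a further gene as well, and Ifi44, for which none carried that symbol alone, were not analysed here. The study asked how segmental copy number differences between strains bear on tissue transcriptomes during development, and the listed genes were not its stated subject. RNA of the entire brain or liver of males was hybridised to Affymetrix arrays, 3 to each of 24 groups. Those groups came from an inbred C57BL/6J strain (abbreviated B6), an inbred DBA/2J strain (abbreviated D2) and 129S2 mice, each at the embryonic stage E14.5, postnatal day 1 (P1), postnatal day 7 (P7) and as adults (P90, labelled as 11 to 14 weeks of age). None carried an engineered allele or received a treatment according to the labels. Adults were bought, B6 and D2 from The Jackson Laboratory and 129S2 from a Charles River site in France, while the younger animals were offspring bred from purchased mice. In the pairs with 129S2, supplier and strain therefore cannot be told apart, while B6 and D2 shared a supplier. No label says that the 3 arrays of a group came from separate animals or litters, so each p-value measures the spread between arrays, and 3 arrays a group limit the precision of every value.

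Type I interferons bind a receptor on the cell surface, and Janus kinases there activate STAT proteins. STAT2 and IRF9 are subunits of the complex that binds the interferon-stimulated response element in the promoters of these genes. The products include sensors of viral RNA, the ISG15 conjugation system, oligoadenylate synthetases, the IFIT proteins that bind foreign RNA, and further antiviral effectors, and many members are also read at a low level in tissue with no infection.

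The response element contains the letters GAAA, any 2 bases, and GAAA again, and this core of 10 letters was searched on both strands in the window from 250 bases before to 50 bases after each gene's start in RefSeq promoters of build GRCm38.p6. A promoter was listed for 26 of the 37 members, and 9 of them (34.6%) held the core, against 3.99% of the 27025 genes in the promoter table (3.44% of its 32851 promoters). These were Stat2, Ifih1, Eif2ak2, Oas1a, Oas3, Ifit1, Ifit3, Rsad2 and Bst2. Stretches for 5 of them are shown because they let the sequence be read beside the values that follow: Ifit1, Rsad2 and Bst2 were among the members that differed most between strains, while Stat2 and Oas3 were called in no strain pair. Each is written 5′ to 3′ on the gene's strand, and capitals mark the core in either orientation, with overlapping cores joined. Stat2 lies at chr10:128270251-128270310 on the plus strand, Oas3 at chr5:120777700-120777759 on the minus strand, and Ifit1 at chr19:34640760-34640838 on the plus strand. Rsad2 lies at chr12:26456538-26456597 and Bst2 at chr8:71537562-71537627, both on the minus strand.
Stat2: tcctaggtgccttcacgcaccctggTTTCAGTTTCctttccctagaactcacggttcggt
Oas3: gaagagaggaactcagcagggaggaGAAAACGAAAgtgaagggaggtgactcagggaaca
Ifit1: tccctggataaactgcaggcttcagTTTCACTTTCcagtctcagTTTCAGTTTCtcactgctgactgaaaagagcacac
Rsad2: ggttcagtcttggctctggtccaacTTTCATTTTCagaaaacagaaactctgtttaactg
Bst2: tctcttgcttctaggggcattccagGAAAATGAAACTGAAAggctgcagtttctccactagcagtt
Ifit1 held the core at 2 separate places and Bst2 held 2 overlapping cores, whereas Stat2, Oas3 and Rsad2 held 1 each. The core's first base lay between 75 bases (Oas3) and 222 bases (Stat2) before the start. A match is a run of letters and not a measured binding site. The matches of the other 4 promoters reach the annotated transcripts and are named only.

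Values are log2 signals, so a difference of 1 is a 2-fold difference. Each tissue and stage was apparently normalized by itself: array medians ran from 5.033 to 7.302, and signals equal to the last digit were shared only within a set of 9 arrays. Strain differences were therefore taken within a tissue and stage with limma, and a difference counted as called where it reached 1.5-fold and its p, after Benjamini-Hochberg adjustment over all genes tested, was below 0.05. Genes had to exceed a log2 signal of 6.661 in their highest group mean, which 36 members did in liver (13145 genes tested) and 28 in brain (14181 genes tested). Mx1 failed in both tissues. Irf7, Usp18, Oasl2, Ifit1, Isg20, Parp14, Psmb9 and Tor3a failed in brain only. Summed levels of tissue markers fitted the labels on all 72 arrays: neuron markers averaged 4.53 to 6.11 above the array median in brain and -0.57 to 0.14 in liver, and hepatocyte markers 6.79 to 9.61 above it in liver and 0.96 to 4.12 in brain. There were 3 arrays that stood apart. In P90 brain, 129S2 replicate 2 correlated at only 0.298 with the other arrays of its strain over the 400 probe sets that differed most between strains (all other arrays, at least 0.547), and in P7 liver, B6 replicate 1 read higher than its companions for most members. In E14.5 brain, B6 replicate 2 had means of 11.4 over the hepatocyte markers, 10.03 over the erythroid and 7.65 over the neutrophil markers, beside at most 8.83, 7.22 and 6.35 on the other B6 arrays. Most named strain differences that rest on any of these arrays are given with and without it, or as a range over the arrays left out.

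By the calls, the listed genes differed between strains in liver more often than in brain, where fewer of them passed the filter. In liver, 29 of 36 members (80.6%, against 27.8% of all genes) were called in at least 1 of the 12 strain pairs, with 125 calls in all. The arrays of the groups did not overlap for 121 of those calls. This adds no support, since calls were already picked by fold and adjusted p. In brain, 2 of 28 members (7.14%, against 9.26% of all genes) were called, with 6 calls. Most of the liver calls had 129S2 lower. In liver, the 129S2 arrays lay below all 6 arrays of the other strains for 5 of 36 members at E14.5 (3.3% of all genes), 10 at P1 (4.64%), 15 at P7 (5.68%) and 23 at P90 (9.81%). In brain the same counts were 1, 1, 2 and 5 of 28 members, with the share of all genes not given here. In bulk tissue, fewer cells of a type and less RNA per cell cannot be told apart.

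**Figure D1:**
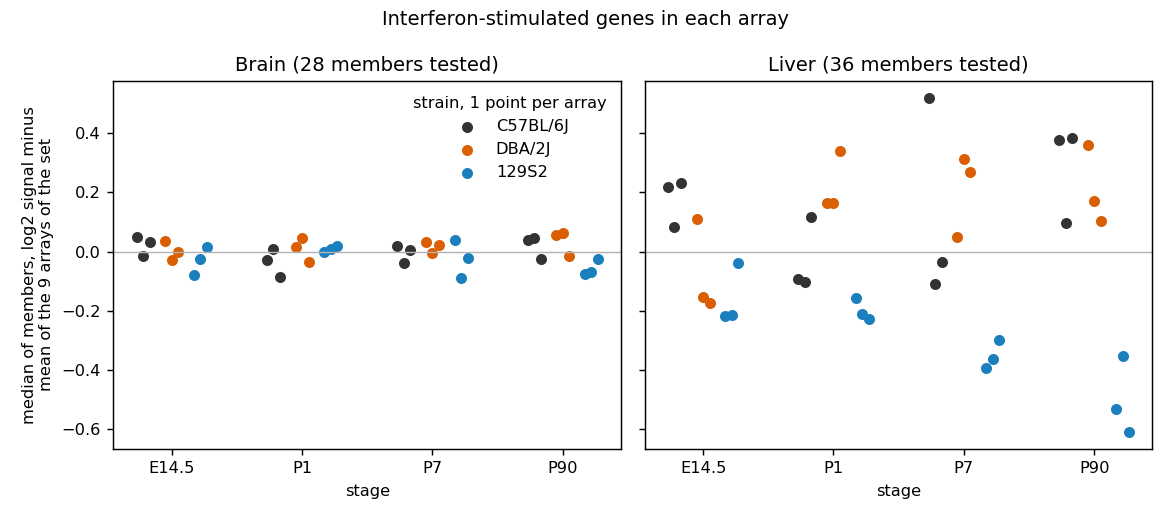
Each point is 1 array: the median, over the members tested in that tissue, of the deviation of the array's log2 signal from the member's mean in its set of 9 arrays (y axis), by stage and strain (x axis), for brain and liver. In P90 liver the 129S2 arrays sit at -0.53, -0.35 and -0.61 and all other arrays above 0, while brain arrays stay between -0.09 and 0.06.

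Adult liver was the set with the most calls. At P90, 21 of 36 members (58.3%, against 11.7% of all genes) were called in at least 1 strain pair. 129S2 was lower than B6 for 20 members (4.79% of all genes were called lower) and lower than D2 for 18 (3.15%). Only Xaf1 was called higher in 129S2 than in B6 (3.13% of all genes were called higher), and no member was called higher in 129S2 than in D2 (2.99% of all genes were called higher). Over all 36 members the median difference was -0.85 against B6 and -0.70 against D2, beside 0.0062 and -0.0049 over all genes tested. B6 and D2 differed for 4 members, Xaf1 and Ifi27 being higher (2.05% of all genes) and Isg20 and Samd9l lower (2.96%) in D2.

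Among the factors of interferon signalling, Irf7 and Irf9 were lower in adult 129S2 liver. Irf7, the factor that drives later interferon production, read 8.41, 8.12 and 8.38 on the B6 arrays, 8.27, 7.98 and 7.76 on the D2 arrays and 7.14, 7.41 and 6.52 on the 129S2 arrays. Irf9, the subunit that contacts DNA, read 7.75, 7.54 and 7.97 in B6, 7.95, 7.79 and 7.77 in D2 and 6.85, 7.06 and 6.79 in 129S2. For both genes all 3 of the 129S2 arrays lay below every other array. Irf7 was 2.43-fold lower in 129S2 than in B6 (log2 -1.28, SE 0.24, limma adjusted p = 1.99e-04) and 1.97-fold lower than in D2, a call lost without 129S2 replicate 3 (log2 -0.73). Irf9 was 1.81-fold lower than in B6 (adjusted p = 4.59e-04) and 1.91-fold lower than in D2 (adjusted p = 1.96e-04). Stat2, the partner of IRF9, was not called, with a difference of -0.38 from B6 (95% interval -0.74 to -0.02).

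Of the ISG15 system, Usp18 was lower, and Herc6 and Trim25 were not called at P90. Usp18, the protease that removes ISG15 and also damps receptor signalling, read 8.18, 7.45 and 8.10 in B6, 8.31, 7.81 and 7.84 in D2 and 6.15, 6.76 and 5.72 in 129S2. Every 129S2 array lay below the lowest B6 and D2 arrays. Its level in 129S2 was 3.25-fold lower than in B6 (log2 -1.70, SE 0.24, limma adjusted p = 3.91e-06) and 3.42-fold lower than in D2 (adjusted p = 2.46e-06). The mean of 129S2 was below the filter level of 6.661, where arrays respond weakly. That holds for 29 of the 125 liver calls, whose sizes are the least exact.

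In the oligoadenylate synthetase family, whose enzymes make the messenger that activates RNase L, 3 of 5 members were lower in adult 129S2 liver than in B6 and 2 of 5 lower than in D2. Oasl1, a family member without that enzymatic activity, read 7.33, 6.88 and 7.42 in B6, 7.60, 7.21 and 6.96 in D2 and 5.51, 5.18 and 5.10 in 129S2. No 129S2 array came within 1 log2 unit of another strain's. The difference was 3.85-fold from B6 (log2 -1.94, SE 0.14, limma adjusted p = 5.61e-12) and 3.99-fold from D2 (adjusted p = 4.05e-12). Oas1a was 2-fold lower than in B6 (adjusted p = 2.97e-04) and differed by -0.57 from D2, which was not called. Oasl2 was 2.38-fold lower than in B6, and its 1.75-fold difference from D2 was lost when any of 5 single arrays was left out. Oas2 and Oas3 were not called in any liver pair.

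The IFIT proteins bind viral RNA and block its translation, and their genes lie together on chromosome 19. Ifit1 read 7.16, 6.65 and 7.08 in adult B6 liver, 7.65, 7.38 and 6.93 in D2 and 5.41, 6.12 and 5.34 in 129S2. All 129S2 arrays were below the lowest array of the other strains, by 2.54-fold on average from B6 (limma adjusted p = 1.31e-04) and 3.25-fold from D2 (adjusted p = 5.73e-06). Ifit3 was 1.8-fold and 1.98-fold lower, whereas Ifit2 differed by -0.56 and -0.40 and was not called at this stage.

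Antiviral effectors made up the largest group, with 5 of 6 tested members lower in adult 129S2 liver than in B6 and 4 of 6 lower than in D2. Rsad2 (viperin, which makes a chain-terminating nucleotide) read 8.52, 7.97 and 8.27 in B6, 8.88, 8.66 and 8.14 in D2 and 6.45, 7.16 and 6.50 in 129S2. Cmpk2, a mitochondrial nucleotide kinase whose gene lies beside Rsad2 on chromosome 12, read 7.52, 7.01 and 7.39 in B6, 7.98, 7.58 and 7.82 in D2 and 6.47, 6.44 and 6.04 in 129S2. Both genes had every 129S2 array below every other array. Rsad2 was 2.93-fold lower than in B6 (log2 -1.55, SE 0.31, limma adjusted p = 4.48e-04) and 3.62-fold lower than in D2 (adjusted p = 5.78e-05). Both further Rsad2 probe sets were also called, at -1.24 and -1.5 (1421008_at, whose call against B6 was lost without any of 4 single arrays) and at -1.76 and -2.08 (1421009_at). Cmpk2 was 1.99-fold and 2.79-fold lower.

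Bst2 (tetherin, which holds budding virus at the cell surface) read 10.34, 10.21 and 10.28 in adult B6 liver, 10.08, 10.07 and 10.04 in D2 and 9.19, 9.01 and 8.93 in 129S2. The strains were each tight and 129S2 stood 2.35-fold below B6 (limma adjusted p = 1.63e-05) and 2.02-fold below D2 (adjusted p = 2.79e-04). Samd9l, an antiviral factor that also restrains growth of blood cells, fell into 3 levels: 7.62, 7.28 and 7.43 in B6, 6.77, 6.68 and 6.55 in D2 and 5.59, 6.06 and 5.89 in 129S2. No strain overlapped another, and all 3 pairs were called, with 129S2 3.02-fold below B6 (limma adjusted p = 2.54e-10), 129S2 1.77-fold below D2 and D2 1.71-fold below B6. Isg20, an exonuclease of single-stranded RNA, was 1.86-fold lower in 129S2 and 1.83-fold lower in D2 than in B6. The 129S2 call was lost without B6 replicate 3 and the D2 call without any of 4 single arrays. Mx2, a dynamin-like GTPase, was not called.

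The remaining roles followed with fewer genes. Psmb8 and Psmb9, catalytic subunits of the immunoproteasome that lie near each other on chromosome 17, were 1.95-fold and 2.1-fold lower in adult 129S2 than in B6. Both of these calls were lost without 129S2 replicate 3 (log2 -0.87 and -0.86). Against D2 they were 2.13-fold and 2.65-fold lower. Ifi27, which encodes a small hydrophobic mitochondrial protein, read 10.42, 10.04 and 10.17 in B6, 10.87, 10.99 and 10.81 in D2 and 8.86, 8.95 and 8.80 in 129S2. The strains stood in the order 129S2, B6, D2 with no overlap, 129S2 being 2.52-fold below B6 and 4.05-fold below D2 (limma adjusted p = 3.88e-08), while D2 was 1.6-fold above B6, a call lost when any of 5 single arrays was left out. Rtp4, a receptor transport protein, was 2.33-fold and 2.67-fold lower. Dhx58 (LGP2, a regulator of RNA sensing) was 2.12-fold and 2.38-fold lower, Parp14 1.72-fold and 1.68-fold lower, and the secreted glycoprotein Lgals3bp 1.86-fold lower than in B6. None of the 4 other tested RNA sensors and kinases, Ifih1, Zbp1, Eif2ak2 and Adar, was called at P90.

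**Figure D2:**
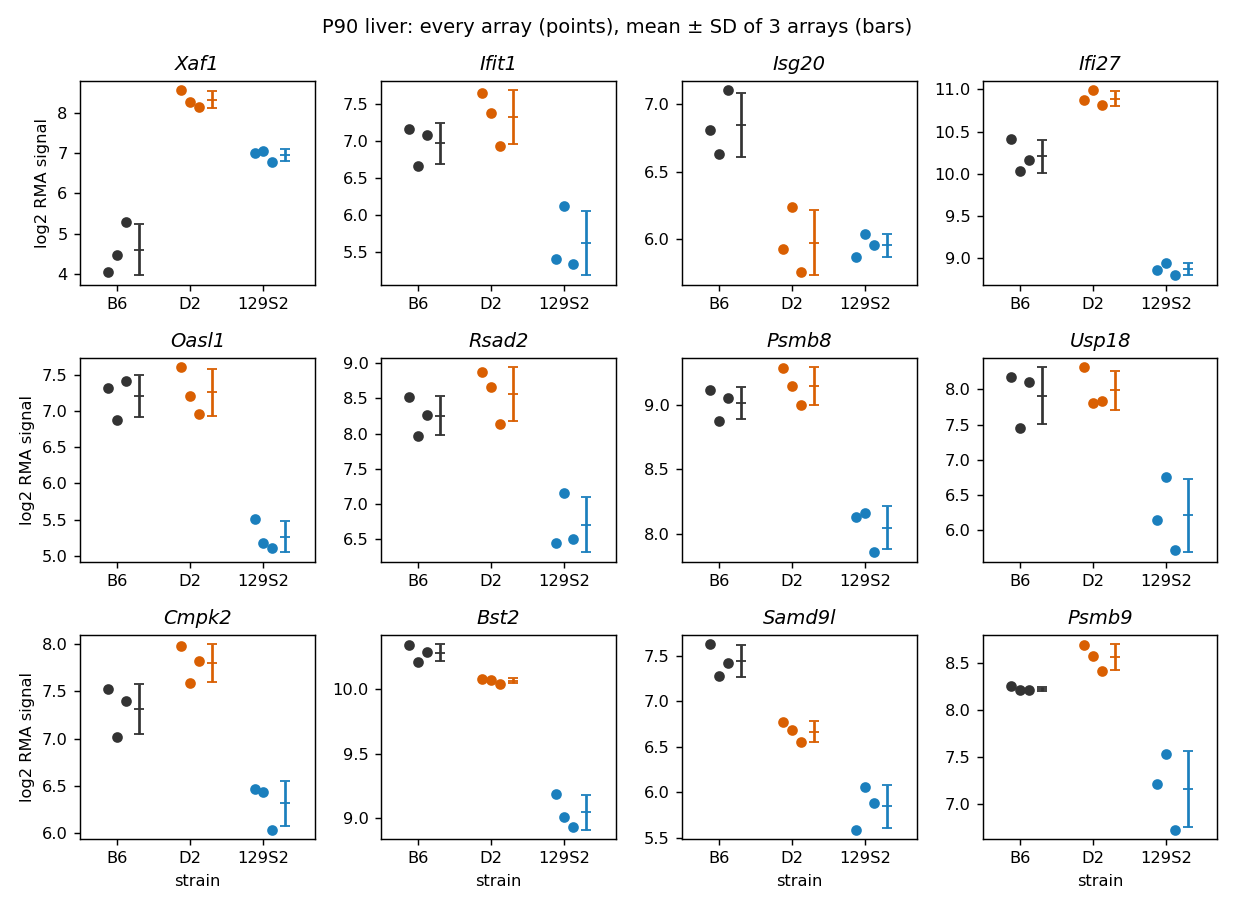
Log2 signal (y axis) of the 12 members with the largest liver strain differences (x axis), in P90 liver only, with a point for each array and the mean ± SD of each strain (n = 3). 129S2 lies below both other strains for every member shown except Xaf1, where B6 is lowest, and Isg20, where 129S2 and D2 overlap.

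Cell type markers were read beside these values in the same livers. Of 6 Kupffer cell markers, 5 were lower in 129S2 than in B6 at P90 (median -0.78), as were 4 of 6 in D2 (median -0.81). Between 129S2 and D2 none was lower and 1 was higher (median -0.06). The mean of the Kupffer markers ran from 8.04 to 8.63 on B6 arrays, 7.49 to 7.72 on D2 arrays and 7.66 to 7.70 on 129S2 arrays. Of 7 neutrophil markers, S100a8 and S100a9 were lower than in B6 in both other strains. The part of these markers in the members' differences was not tested for any strain pair.

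At P7, 20 of 36 members (55.6%, against 11% of all genes) were called in at least 1 liver pair. 129S2 was lower than D2 for 17 members (2.86% of all genes were called lower) and lower than B6 for 14 (2.91%), with Xaf1 higher than in B6 and Tor3a higher than in D2 (2.41% and 3.67% of all genes were called higher). The Tor3a call was lost when any of 4 single arrays was left out. Between D2 and B6, 4 members were higher and 1 lower in D2 (2.08% and 2.96%), a count of calls that ran from 2 to 11 with single arrays left out. The median SD between replicates was 0.294 over the members and 0.135 over all genes in this set. The count against B6 rests in part on B6 replicate 1, on which 33 of 36 members read above their set mean, with a median deviation of 0.52 beside -0.11 and -0.04 on the other B6 arrays. Without that array 5 members were called lower than in B6, while the count against D2 ran from 16 to 18 over all single arrays left out. The D2 arrays of this set had median deviations of 0.05, 0.31 and 0.27 and the 129S2 arrays -0.39, -0.36 and -0.30.

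The immunoproteasome genes showed the spread of that array plainly. Psmb8 read 11.97, 10.51 and 10.55 in P7 B6 liver, 10.88, 11.76 and 11.62 in D2 and 9.78, 9.71 and 9.44 in 129S2. Psmb9 read 11.50, 9.71 and 9.72 in B6, 10.10, 10.98 and 10.94 in D2 and 9.37, 9.28 and 8.87 in 129S2. All 129S2 arrays were the lowest for both genes, B6 replicate 1 was the highest, and the remaining B6 arrays lay between. Against D2, Psmb8 was 3.42-fold lower (log2 -1.78, SE 0.27, limma adjusted p = 2.35e-05) and Psmb9 2.82-fold lower (adjusted p = 7.78e-04). Against B6 the differences were -1.37 and -1.14, which became -0.89 and -0.54 without B6 replicate 1, and the Psmb9 call was then lost.

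Bst2 was lower in P7 129S2 liver whichever array was left out. It read 10.35, 9.77 and 9.83 in B6, 9.98, 10.62 and 10.68 in D2 and 8.94, 8.80 and 8.75 in 129S2. The strains did not overlap with 129S2, which was 2.22-fold below B6 and 3.03-fold below D2 (limma adjusted p = 5.89e-07). Ifit3 was 1.99-fold below D2, and its 1.75-fold difference from B6 was lost without B6 replicate 1 (log2 -0.54). Oasl2 was 2.53-fold and 2.79-fold lower, Cmpk2 2.17-fold and 1.84-fold lower, and Rtp4 2.62-fold lower than in D2. Over the arrays left out, the log2 difference from B6 ran from -1.485 to -1.102 for Oasl2 and from -1.329 to -0.8917 for Cmpk2, always called. Zbp1, a sensor of Z-form nucleic acid, read 8.99, 7.42 and 6.87 in B6, 7.97, 7.56 and 8.22 in D2 and 6.77, 6.45 and 7.04 in 129S2, so B6 and 129S2 overlapped while D2 and 129S2 did not. Its call against B6 was lost without B6 replicate 1, the log2 difference going from -1.01 to -0.39. Trim25, a ubiquitin ligase of RNA sensing, was 1.66-fold higher in D2 than in B6, a call lost without B6 replicate 3, and Ifi27 was 1.9-fold higher. The log2 difference of Ifi27 ran from 0.76 to 1.16 over the arrays left out, always called. Of 6 Kupffer markers 3 were lower in P7 129S2 than in either other strain (medians -0.57 and -0.57), and all 7 neutrophil markers were lower than in B6 (median -1.45) with 2 lower than in D2. T and NK cell markers were lower than in B6 for 3 of 4 genes (median -0.985, Gzma -2.23 and Nkg7 -1.19 among them), and Gzma was also lower than in D2 (-0.88). Of 4 erythroid markers, 2 were higher in 129S2 than in D2. In D2, 5 of 7 neutrophil, 2 of 4 T and NK cell and 3 of 4 erythroid markers were lower than in B6. The part of these markers in the results was not tested.

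At P1, D2 liver stood out as high and 129S2 as low. Of 36 members, 15 (41.7%, against 13.1% of all genes) were called in at least 1 pair, and 11 were lower and 2 higher in 129S2 than in D2 (3.05% and 4.37% of all genes). All 3 D2 arrays lay above the other 6 for 11 members (8.33% of all genes). Against B6, 5 members were higher and 1 lower in D2 (3.15% and 4.91% of all genes), and 2 higher and 3 lower in 129S2 (2.07% and 2.25%), the count of 3 being 1 without B6 replicate 3. Ifit1 read 7.32, 7.26 and 7.77 in B6, 9.18, 8.41 and 9.23 in D2 and 6.72, 6.99 and 6.70 in 129S2. The 3 strains were separate, with D2 2.81-fold above B6 and 129S2 4.4-fold below D2 (log2 -2.14, SE 0.24, limma adjusted p = 2.61e-07). Ifi35, which binds the leucine zipper protein NMI, read 10.18, 10.42 and 10.81 in B6, 11.68, 11.60 and 11.48 in D2 and 10.74, 10.47 and 10.68 in 129S2. Only D2 stood apart, 2.17-fold above B6 and 1.94-fold above 129S2. Isg20 went the other way from the rest: it read 10.42, 9.49 and 10.25 in B6, 9.93, 9.31 and 9.96 in D2 and 10.86, 11.37 and 10.98 in 129S2, the highest 3 arrays being those of 129S2, 2.53-fold above D2. Tor3a, an endoplasmic reticulum ATPase, was also higher in 129S2 than in D2, by 1.85-fold. B cell markers were lower in P1 129S2 than in both other strains for 3 of 4 genes (medians -1.13 and -0.70). T and NK cell markers were lower than in B6 for 2 of 4 genes, and Gzma among them stood -3.71 from B6 and -1.79 from D2. Kupffer markers were lower than in B6 for 3 of 6 genes and lower than in D2 for 1. Of 4 plasmacytoid dendritic cell markers, Ly6d and Tcf4 were lower in 129S2 than in D2, Ly6d was lower than in B6, and Tcf4 was higher in D2 than in B6. The part of these markers was not tested.

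In fetal liver at E14.5 the strain that stood apart was B6. Of 36 members, 13 (36.1%, against 7.98% of all genes) were called in at least 1 pair. All 3 B6 arrays lay above the other 6 for 9 members (6.41% of all genes). 129S2 was lower than B6 for 12 and higher for none (2.25% and 2.05% of all genes), D2 was lower for 7 and higher for 1 (2.95% and 2.38%), and limma called 0 members between 129S2 and D2 (2.81% of all genes), with 7 at an unadjusted p below 0.05. The genes of the ADP-ribosylation group came forward here: Parp9, Parp14 and the ubiquitin ligase partner Dtx3l were all lower in 129S2 than in B6. The call of Parp14 was lost when any of 3 single arrays was left out and that of Dtx3l without B6 replicate 1 or 3, while that of Parp9 was lost with none. Parp9 read 8.93, 8.52 and 8.67 in B6, 7.85, 7.62 and 7.69 in D2 and 7.68, 7.78 and 7.85 in 129S2. Dtx3l, whose annotated span on chromosome 16 overlaps that of Parp9, read 9.07, 8.85 and 9.05 in B6, 8.36, 7.95 and 7.79 in D2 and 8.36, 8.40 and 8.40 in 129S2. B6 was above every other array for both genes. Parp9 was 1.98-fold lower in D2 (limma adjusted p = 1.68e-06) and 1.91-fold lower in 129S2, and Dtx3l 1.94-fold and 1.52-fold lower.

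Cmpk2 and Isg20 had the largest fetal differences. Cmpk2 read 9.14, 8.94 and 8.87 in B6 fetal liver, 6.97, 7.58 and 7.38 in D2 and 7.60, 7.59 and 7.56 in 129S2. Isg20 read 10.29, 9.93 and 10.16 in B6, 7.79, 8.08 and 8.18 in D2 and 8.79, 8.73 and 8.91 in 129S2. B6 arrays were far above the others for both, and for Isg20 all 3 strains were separate. Cmpk2 was 3.19-fold lower in D2 than in B6 (log2 -1.67, SE 0.18, limma adjusted p = 6.91e-08) and 2.64-fold lower in 129S2. Isg20 was 4.32-fold lower in D2 (log2 -2.11, SE 0.25, adjusted p = 4.24e-07) and 2.49-fold lower in 129S2. Irf9 was 2.08-fold lower in 129S2 than in B6, Bst2 2.13-fold, Samd9l 1.98-fold and Ifih1 (MDA5, a sensor of long double-stranded RNA) 1.7-fold lower. Fetal liver makes blood, and neutrophil markers moved in the same direction: all 7 were lower in D2 than in B6 (median -2.18) and 5 of 7 in 129S2 (median -0.84), and 5 of 7 were higher in 129S2 than in D2 (median 1.00). Their mean ran from 11.52 to 11.65 on B6 arrays, 9.15 to 10.46 on D2 arrays and 10.63 to 10.88 on 129S2 arrays, and its part in the members' differences was not tested.

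**Figure D3:**
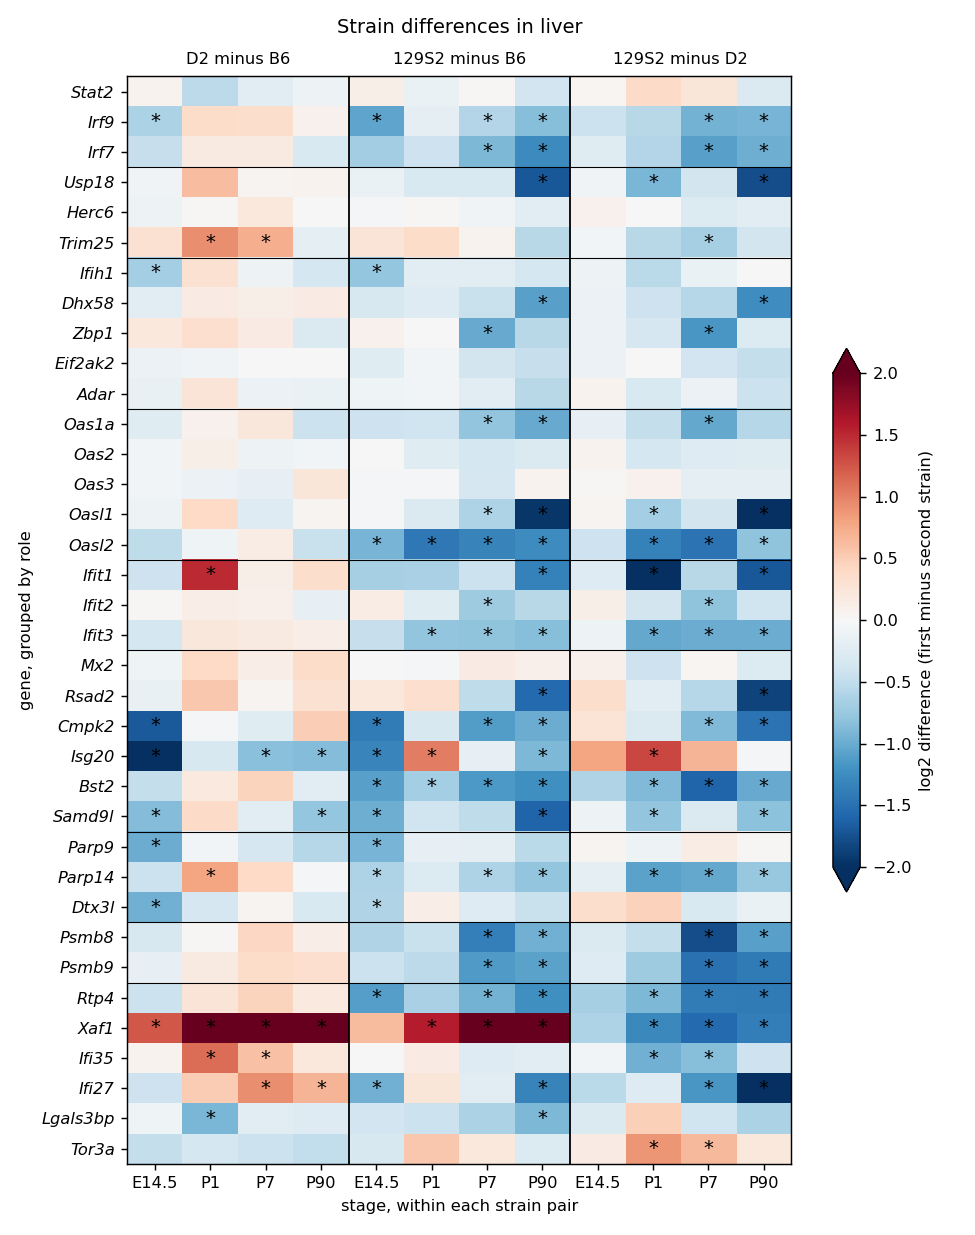
Log2 strain differences in liver (colour, saturating at -2 and 2) for the 36 members tested (rows) in the 12 strain pairs by stage (columns), with a star on each of the 125 called differences. The columns with 129S2 as first strain are mostly on the lower side at P7 and P90, Bst2 is lower in 129S2 at all 4 stages, and Xaf1 is higher than in B6 in both other strains from P1 on.

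The strain differences were not the same at every stage. A test of the strain-by-stage interaction in limma called 19 of 36 members in liver (31.8% of all genes) and 2 of 28, Cmpk2 and Xaf1, in brain (4.72%). By the size of F the first were Oasl1 (27.1), Cmpk2 (16.3), Xaf1 (15.5), Samd9l (13.6) and Ifi27 (10.3). Oasl1 was lower in 129S2 than in D2, by -0.69 on the log2 scale at P1 and by 3.99-fold at P90, both called, beside uncalled differences of 0.05 at E14.5 and -0.37 at P7. Against B6 it was called at P7 (-0.62) and P90 (-1.94). Cmpk2 turned round between D2 and B6, from -1.67 at E14.5 to 0.49 at P90, the latter not called. Bst2, in contrast, was called lower in 129S2 than in B6 at all 4 stages, with differences of -1.09, -0.68, -1.15 and -1.23, the P1 call being lost without 129S2 replicate 3 or B6 replicate 3. The deposited signals of each stage were scaled apart, which bears on how sizes compare between stages.

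Xaf1, a partner of the apoptosis inhibitor XIAP, was higher in D2 and 129S2 than in B6 with the largest differences of any member, but its probe sets did not go the same way. By the probe set used (1443621_at), P7 liver read 6.35, 6.08 and 6.04 in B6, 9.50, 10.34 and 9.86 in D2 and 8.33, 8.28 and 8.44 in 129S2. In P90 liver it read 4.04, 4.46 and 5.30 in B6, 8.57, 8.28 and 8.16 in D2 and 7.01, 7.06 and 6.78 in 129S2. The 3 strains were separate in both sets, B6 always lowest and D2 highest. D2 was 2.37-fold above B6 at E14.5, 7.25-fold at P1, 13.4-fold at P7 and 13.3-fold at P90. The B6 mean lay below the filter level at all 4 stages, so the sizes are inexact. The second probe set (1443698_at) read lower in D2 and 129S2 than in B6 at all 4 stages in liver. The differences were -0.96, -1.52, -1.03 and -1.88 in D2 and -1.12, -1.63, -1.85 and -2.24 in 129S2. All 8 were called in limma (adjusted p from 5.8e-06 to 0.048). With this probe set the 129S2 mean lay below the filter level at all 4 stages, and the D2 mean did at all but P7. These sizes are inexact too. Without B6 replicate 1 the P7 difference in D2 was -0.41 (adjusted p = 0.329) and no longer called, and that in 129S2 was -1.23 and still called. The P7 call in D2 was also lost without D2 replicate 1 or 3. At E14.5 the call in D2 was lost in 27 of 36 fits that each left out 1 liver array, and that in 129S2 in 4, while the calls at P1 and P90 were lost in none. Probe sets read different parts of a transcript, and which of them stands for the level of Xaf1 RNA was not tested.

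**Figure D4:**
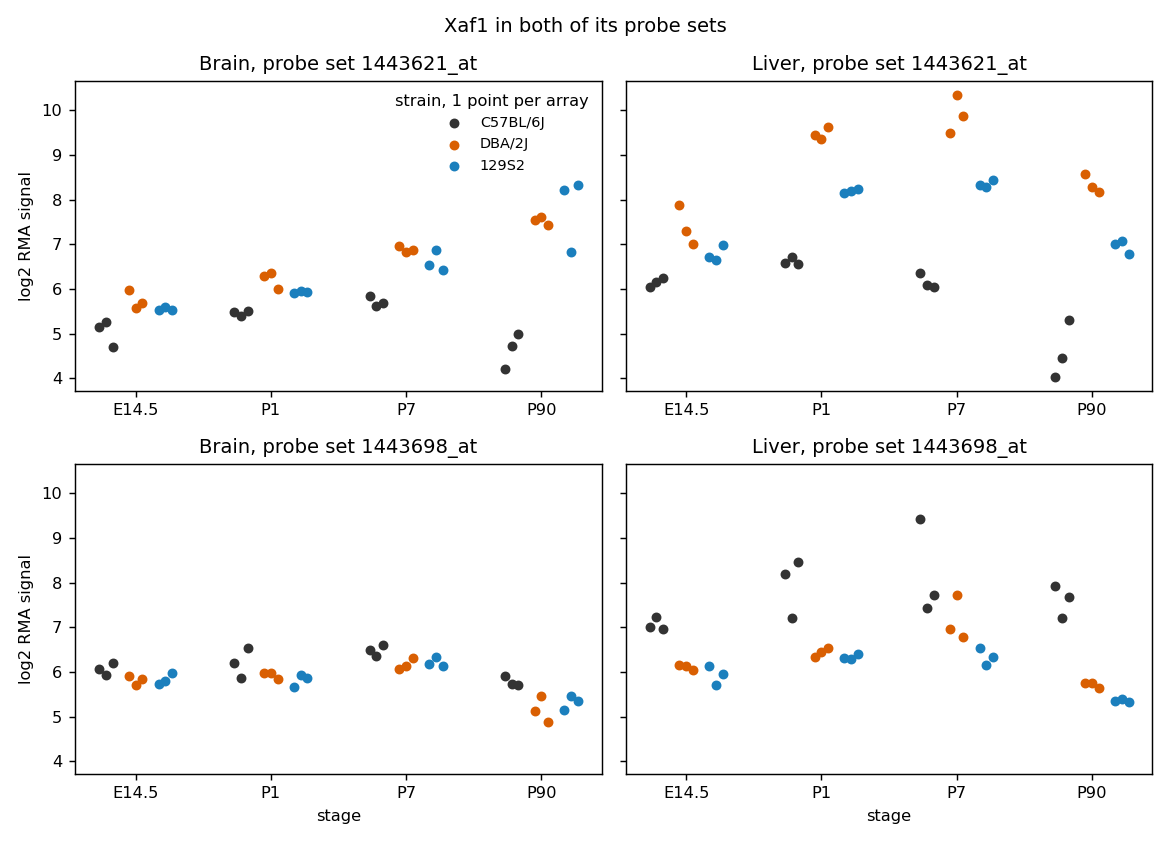
Log2 signals of both Xaf1 probe sets (panels) by stage and strain in liver and brain, a point for each array. With 1443621_at B6 is the lowest strain in P7 and P90 liver, and with 1443698_at B6 is the highest.

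In other members, no further probe set was called in the direction opposite to a called difference, though some had the opposite sign. In liver, 48 comparisons of a called difference with a further tested probe set were possible. Of these, 33 had the same sign, and 16 were called in the same direction. The rest had the opposite sign, and 7 of them were called, all 7 being Xaf1. Those with the opposite sign and no call came from other members and are not listed here. Folds given above rest on the probe set used. Ifi27 gave -1.34 and -2.02 at P90 with its second probe set, against B6 and D2. Herc6, the mouse ligase for ISG15, had no call with the probe set used, while its probe set 1438037_at was lower in 129S2 by -1.07 and -0.92 at P90. Adar, which edits double-stranded RNA, likewise had none, while its probe set 1439276_at was 1.09 higher in D2 than in B6 at P1.

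In brain, limma called 2 members at E14.5, 0 at P1, 1 at P7 and 1 at P90 out of 28 (6.3%, 2.48%, 2.4% and 3.21% of all genes). At P1, 4, 3 and 2 members had an unadjusted p below 0.05 in the 3 pairs. The calls were Cmpk2 once and Xaf1 5 times. The E14.5 Xaf1 call, higher in D2 than in B6, was lost without any of 3 single arrays (log2 0.53 to 0.81). Without B6 replicate 2 that difference was 0.81 and still called. The P7 Xaf1 call, higher in 129S2 than in B6, was lost without any of 4 single arrays (log2 0.77 to 0.99). Cmpk2 read 7.91, 8.08 and 8.40 in E14.5 B6 brain, 7.89, 7.82 and 7.44 in D2 and 7.46, 7.31 and 7.65 in 129S2. B6 lay above both others without overlap, and 129S2 was 1.58-fold lower (log2 -0.66, SE 0.11, limma adjusted p = 2.41e-04), a call lost without B6 replicate 3 or 129S2 replicate 2, with a difference of -0.52 to -0.77 over the arrays left out. Without B6 replicate 2, the array with high hepatocyte and erythroid markers, it was -0.69 (adjusted p = 6.99e-04) and still called. Of 4 erythroid markers, Alas2 was also lower in 129S2 than in B6 in this set (list median -1.19). Xaf1 by 1443621_at read 4.22, 4.73 and 4.99 in P90 B6 brain, 7.55, 7.62 and 7.43 in D2 and 8.22, 6.82 and 8.34 in 129S2. B6 was at the bottom of the array's range, and the lowest 129S2 value was that of replicate 2, the array whose strain profile was weak. The difference from B6 was 3.14 in 129S2 (SE 0.23, limma adjusted p = 6.22e-11), and 3.63 without that array, beside 2.88 in D2 (adjusted p = 3.40e-10). The second Xaf1 probe set stayed below the filter in brain and was not tested there.

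For Bst2 and Ifit3 the adult values of both tissues were set side by side. Bst2 read 6.76, 6.76 and 6.74 in P90 B6 brain, 6.67, 6.67 and 6.68 in D2 and 6.43, 6.40 and 6.47 in 129S2. Its difference between 129S2 and B6 was -0.32 (95% interval -0.53 to -0.10), beside -1.23 in liver. In P90 brain all Bst2 arrays of 129S2 lay below the filter level of 6.661, where arrays may respond weakly. The B6 and D2 arrays lay just above that level. The size of the Bst2 difference therefore cannot be compared between brain and liver. Ifit3 differed by -0.35 in brain (-0.55 to -0.16) and -0.85 in liver. Both brain intervals lay below 0, and neither brain difference reached 1.5-fold. The strain-by-tissue interaction, fitted in limma on the difference averaged over the 4 stages, was called for 18 of 36 members (4.52% of all genes), with the largest F for Oasl1 (53.9), Xaf1 (46.0) and Bst2 (38.8). All of them but Isg20 and Tor3a had a negative difference between 129S2 and D2 in liver that was larger than in brain. Irf7, Usp18, Oasl2, Ifit1, Isg20, Parp14, Psmb9 and Tor3a were below the filter in brain and entered this test through their liver level. All of these were among the 18 called, and their brain signal is too weak for a comparison of the tissues. Oasl1, Dhx58 and Xaf1 passed the filter in brain but also read low there. After quantile normalization, means over the strains were 6.13 to 6.68 for Oasl1 and 5.96 to 6.42 for Dhx58. Those of Xaf1 were 5.18 to 6.15 before P90. The sizes of their tissue differences are therefore inexact.

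Across development many members reached higher levels in liver, with the most members passing at the step around birth. Stages were compared by size only, after quantile normalization of the 36 arrays of a tissue, and a member counted as higher or lower where it differed at least 2-fold in the same direction in each of the 3 strains. From E14.5 to P90, 16 of 36 members were higher and 0 lower in liver (14.1% and 19.8% of all genes), with a median of 1.20 over the members and -0.21 over all genes. The step from E14.5 to P1 gave 13 higher and 0 lower (9.23% and 5.58%), that from P1 to P7 gave 3 and 0 (1.31% and 0.525%), and that from P7 to P90 gave 1 and 3 (3.8% and 12.4%). On the signals as deposited, the counts from E14.5 to P90 were 2 higher and 7 lower, beside a median of -1.70 over all genes. Relative to the median of all genes, the members' median was 1.41 with quantile normalization, 1.44 as deposited and 1.44 after centring each array.

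The largest liver increases were those of Ifit3, Bst2, Parp14, Ifi27 and Parp9. Ifit3 was 3.38 ± 0.41 higher at P90 than at E14.5 on the log2 scale (mean ± SD over the 3 strains), Bst2 2.90 ± 0.19, Parp14 2.66 ± 0.28, Ifi27 2.56 ± 0.68 and Parp9 2.42 ± 0.31. Irf7, Stat2, Psmb8, Psmb9, Ifit1 and Oasl2 were also higher in each strain, with means from 2.12 ± 0.20 for Oasl2 to 2.4 ± 0.23 for Stat2. The lowest values were -1.16 ± 0.68 for Isg20, -0.87 ± 0.33 for Ifit2, -0.63 ± 0.14 for Oas3, -0.06 ± 1.08 for Rsad2 and 0.02 ± 0.16 for Eif2ak2 (PKR, which halts translation), and none of these 5 passed in each strain. Strains parted for a few members. Rsad2 differed between E14.5 and P90 by 0.28 in B6, 0.80 in D2 and -1.27 in 129S2. Oasl1 gave 1.30, 1.5 and -0.39, and Usp18 1.23, 1.44 and -0.12. For all 3 genes 129S2 had the lowest change and the only negative one.

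Brain had fewer such genes. From E14.5 to P90, 6 of 28 members were higher and 1 lower in brain (12.1% and 15.9% of all genes), with a median of 0.26 over the members and -0.20 over all genes. On the signals as deposited the balance turned round, with 2 higher and 6 lower beside a median of -0.96 over all genes. Ifit3 was 3.33 ± 0.08 higher, Ifi27 2.03 ± 0.05, Cmpk2 1.83 ± 0.41, Lgals3bp 1.47 ± 0.02, Samd9l 1.20 ± 0.13 and Psmb8 1.05 ± 0.02. The 3 strains lay close together for Ifit3, Ifi27, Lgals3bp and Psmb8. Oas3 was lower, at -1.29 ± 0.07, followed by Trim25 (-0.41 ± 0.12), Oasl1 (-0.40 ± 0.07), Dtx3l (-0.39 ± 0.30) and Parp9 (-0.33 ± 0.06), which did not pass. Xaf1 had a mean of 2.07 ± 1.30, made of 0.60 in B6, 2.56 in D2 and 3.04 in 129S2. The step from E14.5 to P1 gave 1 higher and 0 lower (4.49% and 3.21% of all genes), that from P1 to P7 gave 0 and 0 (1.23% and 0.338%), and that from P7 to P90 gave 2 and 1 (4.01% and 9.82%). Ifit3 is the member with the largest mean change in both tissues.

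**Figure D5:**
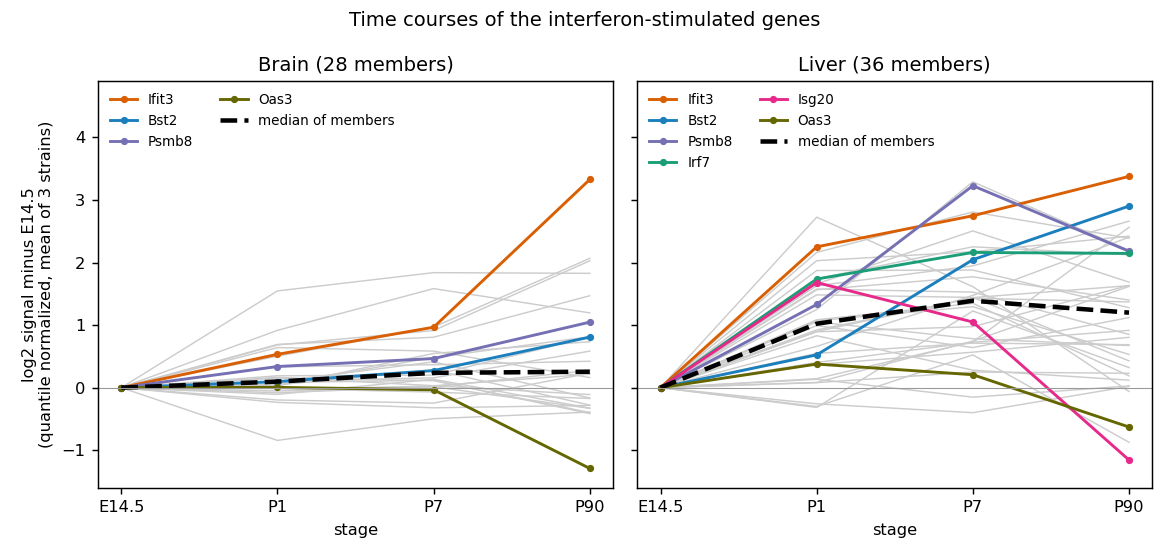
Change in log2 signal from E14.5 (y axis, mean over the 3 strains after quantile normalization) at each stage (x axis) for the members tested in brain and in liver, with 6 named members in colour and the median of the members dashed. Ifit3 climbs highest in both tissues, by 3.33 in brain and 3.38 in liver at P90, while Oas3 ends below 0 in both.

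The pathway upstream of these genes was read from a list of 42 interferons, receptors, kinases, regulatory factors, inhibitors and sensors, of which 38 were in the table. In brain, limma called 0 of the 31 tested in all 12 strain pairs, against 9.26% of all genes, with between 1 and 8 genes at an unadjusted p below 0.05 in each pair. In liver, 6 of 32 genes (27.8% of all genes) were called, with 7 differences. Socs3, which switches off cytokine receptors, was 1.63 higher in 129S2 than in D2 at P90 (SE 0.35, limma adjusted p = 0.00114). Irf8, a factor of myeloid cells, was lower in 129S2 than in B6 at P7 (-0.86, adjusted p = 1.1e-05). Stat3, a shared cytokine signal transducer, was lower than in B6 at P90 in D2 (-0.66) and in 129S2 (-0.65). The others were the receptor kinase Jak1 (-0.61 in D2 against B6 at P1), the RNA receptor Tlr3 (-0.64 in 129S2 against D2 at P1) and the kinase Tbk1 (-0.61 in 129S2 against D2 at P7). No interferon or interferon receptor gene was among the 7.

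Over development, 5 of the 32 pathway genes were higher and 4 lower in P90 than in E14.5 liver (14.1% and 19.8% of all genes). In brain, 2 of 31 were higher and 4 lower (12.1% and 15.9% of all genes), by the same 2-fold rule in each strain. The counts lie near or below these shares, so the genes are named singly and not as a trait of the list. The factor Irf2 was 2.33 higher in liver, the receptor subunit Ifnar2 1.5, Irf1 1.42, the RNA sensor Ddx58 1.40 and Tlr3 1.29. The interferon gene Ifnab (-2.52), the DNA sensor Cgas (-1.47), Jak2 (-1.45) and the inhibitor Socs1 (-1.14) were lower. In brain Jak1 (1.86) and Tlr3 (1.85) were higher, and the interferon Ifna2 (-1.40), Socs3 (-1.34), Ifnlr1 (-1.33) and Cgas (-1.07) were lower.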

How the data were processed

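The authors deposited log2 signals made with RMA, per the submitters' processing notes, whose version is not given in the sources used here. Equal signals were shared within each of the 8 tissue-and-stage sets of 9 arrays (1.55 to 4.35% of probe sets) and never between sets (0%), so sets are treated as normalized separately. limma 3.58.1 in R 4.3.3 fitted 36 arrays of a tissue by group means with eBayes, two-sided, without a replicate block. Genes had to pass 6.661, the median of all deposited signals, in 1 group mean. In simulated liver data for P90 129S2 minus B6 (13145 genes), the test called 99 of 100 genes lowered by 1 on the log2 scale and 3 unchanged genes. The lowered genes were picked at random, with noise independent between genes. In P90 liver the median SD between replicates was 0.175 over the members and 0.101 over all genes, so this recovery need not hold for the members. Probe sets annotated with several genes were left out. Replicate numbers were not taken to pair samples: correlations of same-numbered arrays of different strains ran from -0.436 to 0.594. Same-numbered brain and liver arrays correlated above 0.1 in all 3 pairs in 5 of 12 strain and stage groups (range -0.156 to 0.33), and no label says they share an animal. The first 12 members by largest called difference are given array by array and the others by folds and ranges, except Irf7, Irf9, Zbp1, Ifi35, Parp9 and Dtx3l, given array by array by a choice made after their values were seen. The members and the lists were chosen with earlier results of these data known. Alternatives were array weights, median centring, quantile normalization, other filters, the mean of a gene's probe sets, only the 9 arrays of a set, trended and robust eBayes, a replicate block, no minimum fold, and leaving out each array, which for further probe sets was added after seeing the data.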

Additional observations from a re-analysis of the deposited data

Results flagged for a closer look

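Members are given here whose strain effect differed between stages or between tissues by a limma interaction test (Benjamini-Hochberg adjusted p below 0.05 over all genes and at least 1.5-fold). For stages, each value is the range of the log2 strain difference over the 4 stages, in the pair where it was widest. In brain it was 0.7476 for Cmpk2 and 2.675 for Xaf1, both in 129S2 minus B6. In liver the pair 129S2 minus D2 was widest for Rsad2 (2.215), Oasl1 (2.05), Ifi27 (1.759), Usp18 (1.707), Psmb8 (1.49), Dhx58 (1.138) and Bst2 (0.9912). The pair D2 minus B6 was widest for Xaf1 (2.499), Cmpk2 (2.161), Ifit1 (1.91), Samd9l (1.254), Parp14 (1.222), Trim25 (1.122), Ifi35 (1.053), Dtx3l (1.006), Irf9 (0.9993), Ifih1 (0.9785) and Parp9 (0.9266). Isg20 was widest in 129S2 minus B6, at 2.334.

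For tissues, each value is brain minus liver of the log2 strain difference averaged over stages, in the pair where it was largest. In 129S2 minus D2 it was 1.002 for Ifit1, 0.9424 for Psmb9, 0.9277 for Rtp4, 0.8773 for Bst2, 0.7848 for Ifi27, 0.7632 for Ifit3, 0.6874 for Irf9, 0.6318 for Usp18, 0.623 for Parp14 and -0.6382 for Tor3a. In 129S2 minus B6 it was 0.8414 for Oasl2, 0.8117 for Irf7, 0.7746 for Oasl1, 0.771 for Psmb8, 0.7388 for Cmpk2 and 0.6156 for Dhx58. In D2 minus B6 it was 0.9681 for Isg20 and -1.518 for Xaf1. Irf7, Usp18, Oasl2, Ifit1, Isg20, Parp14, Psmb9 and Tor3a were below the filter in brain, where their signal is too weak for a comparison of the tissues. Bst2 passed the filter in brain, but its P90 brain arrays read close to the filter level, so the size of its tissue difference is inexact. The same holds for Oasl1 and Dhx58, which read near or below that level in brain, and for Xaf1 before P90. These members and the Xaf1 result, whose probe sets disagree, need the most care.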

How the results depend on the processing

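Of 131 called member differences, all had a value under 8 of 10 alternatives and with each array left out, 124 with the mean of a gene's probe sets and 101 with the stricter filter, where the other 30 were not tested. Of these, 2 reversed, both with the mean of a gene's probe sets: Tor3a in P7 liver, 129S2 minus D2 (-0.04994), and Xaf1 in P1 liver, 129S2 minus B6 (-0.02717). Calls lost were 21 with only the 9 arrays of a set, 16 with the mean of probe sets, 6 with quantile normalization, 4 with array weights, 2 each with median centring and a replicate block, and 0 with no filter, no minimum fold, trended and robust eBayes or, among the 101, the stricter filter. The cause was not tested, except that the stricter filter (8.402) and the 9-array fits use fewer genes or arrays.

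Counts of members moved as follows. With the stricter filter, members lower in liver became 1 in E14.5 129S2 minus D2 (from 0), 1 in P1 129S2 minus B6 (from 3) and 9 in P7 129S2 minus B6 (from 14), brain calls became 1 at E14.5, 0 at P7 and 0 at P90, the brain interaction with stage 1, and brain time courses 2 higher and 0 lower. With no minimum fold, 17 were lower in P1 129S2 minus D2 (from 11), 11 called in P1 D2 minus B6 (from 6), 5, 2 and 6 in brain at E14.5, P1 and P90, and 29 by tissue (from 18). With only 9 arrays, 6 were lower in P7 129S2 minus B6, 3 called in P7 D2 minus B6 (from 5), and 0 and 1 in brain at E14.5 and P1. With the mean of probe sets, 3 were called in P7 D2 minus B6, 0 in brain at E14.5, P7 and P90, and 0 by brain stage. Array weights gave 14 in E14.5 D2 minus B6 (from 8) and 4 by brain stage (from 2). Quantile normalization gave 2 in P90 D2 minus B6 (from 4) and 1 in E14.5 brain. Testing every probe set gave 1 in P1 and 2 in P90 brain, and no filter gave 2 in P90 brain. Time courses gave 11 higher in brain and 1 lower in liver at 1.5-fold, and as deposited 2 higher and 6 lower in brain and 2 higher and 7 lower in liver.

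With a replicate block (for the tissue interaction, brain and liver arrays of the same strain, stage and number) the interaction with tissue called 18 members, as without it, the brain interaction with stage was 1 member (from 2), members lower in P7 liver 129S2 minus B6 were 13, and no other count moved by over 1.5 times. Of 72 arrays, 34 correlated best with their own number. In P7 brain, same-numbered arrays of different strains correlated at 0.338 to 0.518 for number 1 and 0.401 to 0.565 for number 2. In P1 liver the values ran from -0.436 to 0.147 for number 1. What the numbers stand for was not tested.

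Over single arrays left out, members lower in 129S2 than in B6 numbered 8 to 14 at E14.5, 1 to 3 at P1, 5 to 15 at P7 and 18 to 24 at P90. Those lower than in D2 numbered 0 to 2, 10 to 12, 16 to 18 and 16 to 19. D2 minus B6 gave 6 to 11, 5 to 8, 2 to 11 and 2 to 4. Any liver pair gave 10 to 15, 14 to 16, 19 to 21 and 20 to 25, and brain 0 to 3, 0 to 1, 1 to 1 and 1 to 1. Interactions were 1 to 3 (brain stage), 17 to 24 (liver stage) and 17 to 21 (tissue). Time courses gave 5 to 6 higher and 1 to 1 lower in brain, 15 to 16 higher and 0 to 0 lower in liver. Counts moved by over 1.5 times in P7 liver without B6 replicate 1 (5 lower in 129S2 than in B6, 11 called in D2 minus B6), B6 replicate 3 (2 in D2 minus B6) or D2 replicate 2 or 3 (3 each). In P90 liver D2 minus B6 was 2 without B6 replicate 3, D2 replicate 1 or D2 replicate 3. In P1 liver 1 member was lower in 129S2 than in B6 without B6 replicate 3. In E14.5 brain 0 were called without B6 replicate 3 and 1 without 129S2 replicate 2, D2 replicate 1 or D2 replicate 3, and the brain interaction with stage was 1 without E14.5 B6 replicate 3.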
